A study of Homo sapiens with 6 samples.

Results

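The genes described here are 10 stress-response genes: the activating transcription factors ATF3, ATF4 and ATF5, the CHOP gene DDIT3, the C/EBP genes CEBPB, CEBPG and CEBPD, and TRIB3, CHAC1 and NUPR1. They were chosen by gene name from a count table of 58735 genes, no name occurred on more than 1 row, and all 10 passed the filter on low counts that left 15271 genes for testing. RNA had been sequenced from SKOV3ip1 cells, a cultured human ovarian adenocarcinoma line labelled wild type, 48 h after lipid transfection with 2 µg of siRNA. The control group received control siRNA and the other group BARD1 siRNA, with 3 libraries labelled as biological replicates in each. The BARD1 protein pairs with BRCA1 through its RING domain. Some labels call the samples tumours, while the titles and protocols describe cells grown in plates. The comparison asks what silencing of BARD1 does to transcript levels, with tumour angiogenesis as the stated interest of the series. Both groups come from 1 cell line and both carry the transfection reagent. Untransfected cells were not analysed here, and the labels do not say whether the replicates received 1 siRNA sequence or several.

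When unfolded protein, amino acid shortage, haem shortage or viral RNA activates 1 of the kinases of eIF2α, most translation slows while the mRNA of ATF4 is translated more, through short reading frames in its leader. ATF4 pairs with other basic leucine zipper (bZIP) proteins, among them C/EBP factors, and binds composite C/EBP-ATF sites in genes for amino acid supply and for further regulators such as ATF3, CHOP, TRIB3 and CHAC1. CHOP and C/EBPγ act largely as partners of other bZIP proteins, while C/EBPβ and C/EBPδ are also effectors of inflammatory signalling. The counts measure mRNA only, so translational control of ATF4, ATF5 and CHOP is outside what they show. In bulk RNA, more cells with a transcript and more transcript per cell cannot be told apart.

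Libraries held 16621108 to 17743404 gene counts. Levels are given as CPM, the counts relative to the scaled library total. BARD1 itself was lower in each BARD1 siRNA library, at 5.91, 6.52 and 9.71 CPM against 45.8, 37.8 and 49.2 CPM under control siRNA. The first principal component held 61.9% of the variance and set both groups apart. On the second, with 10.3%, BARD1 siRNA replicate 1 lay at −26.6 and its group mates at 21.6 and 4.86, against −11.5 to 5.89 for the control libraries, and all 10 genes passed the edgeR test in the same direction without it. Of 8 markers of ovarian carcinoma epithelium, the summed level was 3778 to 4155 CPM under control siRNA and 4104 to 4209 CPM under BARD1 siRNA, most of it ERBB2 and KRT8. By the edgeR test PAX8 and KRT18 rose by 0.75 and 0.40 on the log2 scale, EPCAM and ERBB2 fell by 0.24 and 0.14, KRT8 and MSLN did not pass, and MUC16 and WT1 were too low to test. The 5 leukocyte markers summed to 0 to 2 counts per library and the 3 endothelial markers to 1 to 5. The 4 fibroblast markers summed to 6.38 to 7.29 CPM under control siRNA and 7.76 to 9.23 CPM under BARD1 siRNA, and their part in the results was not tested.

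Under BARD1 siRNA, 9 of the 10 genes rose and 1, ATF5, fell. All 10 passed the edgeR quasi-likelihood test at an adjusted p of 0.05, where 42.3% of all tested genes passed in either direction, 22.0% as higher and 20.3% as lower. In all 10 the 3 libraries of 1 group lay above the 3 of the other, as they did for 50.4% of all tested genes (25.8% under BARD1 siRNA higher and 24.7% with it lower). Of the 10, 8 rose at least 2-fold, a size that 4.48% of tested genes reached with a passing test. The median log2 fold change of the 10 was 2.49, beside −0.01 over all tested genes. The values fall into tiers. ATF3, DDIT3, CHAC1 and NUPR1, which averaged 4.72 CPM or less under control siRNA, had log2 fold changes from 3.73 to 5.35. CEBPD, TRIB3 and CEBPB lay between 2.21 and 2.51, and ATF4 and CEBPG, the former already abundant, at 1.22 and 0.76.

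**Figure D1:**
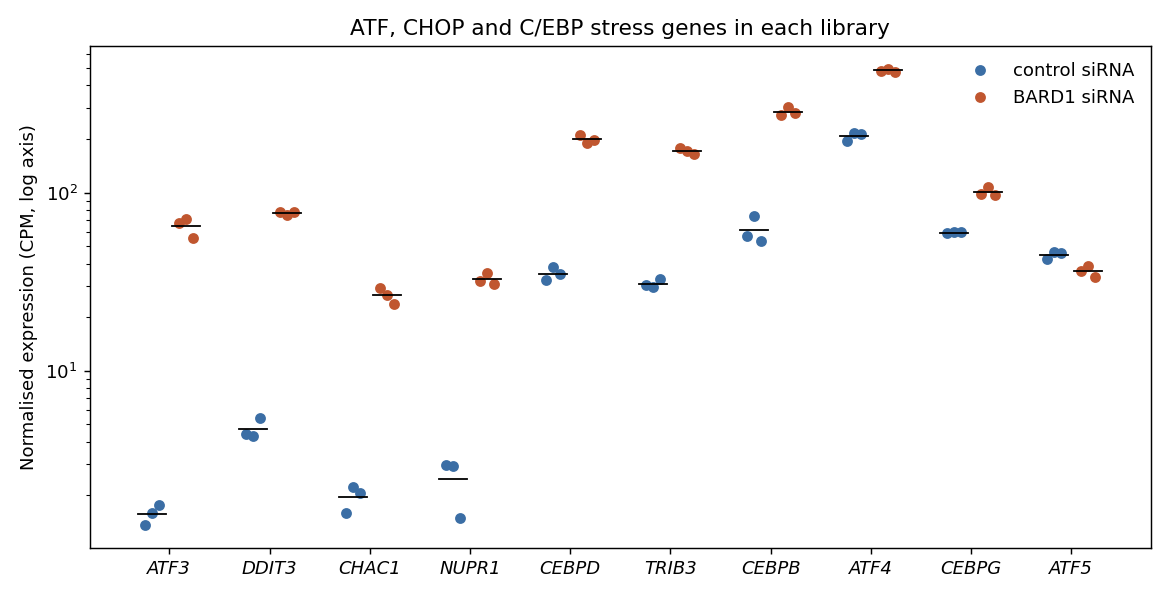
Normalised expression (CPM, log axis) of the 10 stress genes in each library, control siRNA in blue and BARD1 siRNA in orange; black bars are means of 3 libraries. ATF3 lay at 1.37 to 1.78 CPM under control siRNA and 55.6 to 71.1 CPM under BARD1 siRNA, while the ATF5 libraries under BARD1 siRNA, at 33.8 to 38.5 CPM, lay below all control libraries.

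The composite site through which ATF4 and C/EBP proteins act together was looked up in the RefSeq promoter windows (GRCh38.p14, 250 bases before to 50 after a start), since most of these genes rose together. Windows were found for 8 of the 10 genes, 17 in all, and NUPR1 and CEBPD had none. ATF3 had windows for 2 starts while GENCODE 29 lists 7. It also lists more starts than there were windows for ATF5 (5 starts) and for CHAC1, DDIT3 and TRIB3 (4 each). The other starts of these genes had no window of their own. The C/EBP-ATF core TGATGNAA, on either strand, occurred in 1 window each of CHAC1, CEBPG and ATF3, and in 3.62% of all 35116 windows of that length. The AP-1 motif TGANTCA occurred in 1 window of ATF5 and at 1 place of DDIT3 that 2 overlapping windows hold, and in 7.71% of all windows. The cAMP response element TGACGTCA and the ER stress element (CCAAT, 9 bases of any kind, CCACG) were in none of these 17 windows, and in 1.85% and 0.0769% of all windows. The C/EBP motif TTGCNNAA was in 1 window of ATF3 and 2 of ATF5, against 10.5% of all. No match to 1 motif overlapped a match to another. Stretches of 30 bases around 4 matches are shown 5′ to 3′ on the gene's own strand, with the motif in capitals, the first 3 to compare the C/EBP-ATF core between genes that rose by very different amounts and DDIT3 for its AP-1 match, as its windows hold no such core:
CHAC1: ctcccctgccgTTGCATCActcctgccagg
CEBPG: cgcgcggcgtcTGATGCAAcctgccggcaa
ATF3: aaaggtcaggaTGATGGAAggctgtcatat
DDIT3: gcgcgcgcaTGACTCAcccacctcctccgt
The CHAC1 stretch (chr15:40953251-40953280, plus strand) holds the core on the opposite strand, beginning 209 bases before the start at 40953471 and inside an exon of a longer GENCODE 29 transcript. The CEBPG stretch (chr19:33374060-33374089, plus strand) begins its core 42 bases before the start at 33374113, outside GENCODE 29 exons of the gene. CHAC1 and CEBPG share the 8 letters of the core, read on opposite strands. Their log2 fold changes were 3.75 and 0.76, from 1.96 and 59.6 CPM under control siRNA. Whether the match bears on the change was not tested. The ATF3 match (chr1:212565205-212565234, plus strand) lies 191 bases before the distal start at 212565407, and the counts do not tell which of the annotated starts of ATF3 was used. The DDIT3 stretch (chr12:57520735-57520764, minus strand) carries the AP-1 letters 241 bases before the start at 57520514. A match describes letters in the window only, and sites beyond the reach of the windows were not searched.

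ATF4, the central factor of the response (ENSG00000128272, chromosome 22, 39519695 to 39522685, plus strand, GRCh38), was the most abundant of the 10 in both groups. It stood at 195, 216 and 213 CPM under control siRNA and 483, 496 and 477 CPM under BARD1 siRNA. The groups were far apart and replicates close together, a 2.34-fold rise (log2 fold change 1.22, SE of 0.05, edgeR adjusted p = 3.41e-27). Of 4 annotated ATF4 pseudogenes, ATF4P3 held 2 to 11 counts per library, ATF4P4 1 count in all and ATF4P1 and ATF4P2 0, against 3423 to 8368 for ATF4.

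ATF3, a stress-induced bZIP factor that represses or activates according to its partner (ENSG00000162772, chromosome 1, 212565334 to 212620777, plus strand), changed most. It had 24, 27 and 32 counts under control siRNA and 1097, 1201 and 968 under BARD1 siRNA, or 1.58 ± 0.205 and 64.8 ± 8.12 CPM (SD, n = 3 per group). Replicate 3 was the lowest under BARD1 siRNA, at 55.6 CPM, and still far above the highest control library at 1.78 CPM. The fold change was 40.9 (log2 5.35, SE of 0.14, edgeR adjusted p = 4.93e-36), the 9th highest value of the 15271 tested genes.

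ATF5, whose mRNA carries upstream reading frames as that of ATF4 does and which is linked to the mitochondrial stress response (ENSG00000169136, chromosome 19, 49928702 to 49933935, plus strand), was the 1 gene that fell. It stood at 42.2, 46.1 and 45.7 CPM under control siRNA and 36.4, 38.5 and 33.8 CPM under BARD1 siRNA. The groups did not overlap, but the gap between the nearest libraries was small beside that of the other genes. The reduction was 1.23-fold (log2 fold change −0.30, SE of 0.09, edgeR adjusted p = 0.00308). On the opposite strand, 2 tested genes lie across ATF5. NUP62 shares 626 exon bases with it and had a log2 fold change of −0.04 (SE 0.06, edgeR adjusted p = 0.665), and IL4I1 shares 75 and rose by 2.85 (SE 0.28). Strand use in counting is stated in none of the sources used here, so reads of the shared bases cannot be told apart.

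DDIT3 encodes CHOP, the bZIP factor that joins C/EBP proteins and promotes death under lasting stress (ENSG00000175197, chromosome 12, 57516588 to 57521737, minus strand). It had 78, 73 and 98 counts under control siRNA and 1271, 1262 and 1351 under BARD1 siRNA. The 3 BARD1 siRNA libraries lay at 74.8 to 78.2 CPM and the control libraries at 4.29 to 5.44 CPM. The rise was 16.2-fold (log2 fold change 4.02, SE of 0.11, edgeR adjusted p = 1.33e-35). MARS and MBD6 overlap DDIT3 on the opposite strand by 355 and 58 of its 1307 exon bases. Their log2 fold changes were 0.56 (SE 0.06) and 0.86 (SE 0.09). MARS held 2379 to 2750 counts per library under control siRNA and 3376 to 3738 under BARD1 siRNA, more than DDIT3 in both groups. MBD6 held 461 to 591 and 871 to 916. MIR616, annotated inside DDIT3, had 0 to 5 counts under control siRNA and 14 to 19 under BARD1 siRNA. How reads of shared bases were assigned was not tested.

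CEBPB (ENSG00000172216, chromosome 20, 50190734 to 50192689, plus strand), whose product activates acute-phase and cytokine genes, stood at 57.4, 74.1 and 53.5 CPM under control siRNA. Under BARD1 siRNA it stood at 272, 302 and 280 CPM. Control replicate 2 was the highest of its group, which widened the spread to 61.7 ± 11.0 CPM, yet it lay far below every BARD1 siRNA library. The rise was 4.62-fold (log2 fold change 2.21, SE of 0.11, edgeR adjusted p = 1.28e-07). The antisense gene CEBPB-AS1, which shares 231 exon bases, went from 7 to 23 counts per library under control siRNA to 5 to 7 under BARD1 siRNA and was too low to test.

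CEBPD (ENSG00000221869, chromosome 8, 47736909 to 47739086, minus strand), a C/EBP gene typically switched on by cytokines, stood at 32.5, 38 and 34.8 CPM under control siRNA. Under BARD1 siRNA it stood at 210.3, 191 and 198 CPM. Its 5.69-fold rise was the largest value of the 3 C/EBP genes (log2 fold change 2.51, SE of 0.07, edgeR adjusted p = 7.21e-36). CEBPG (ENSG00000153879, chromosome 19, 33373330 to 33382686, plus strand), which lacks an activation domain of its own and dimerises with ATF4, stood at 59.0, 60.1 and 59.8 CPM under control siRNA. Under BARD1 siRNA it stood at 97.7, 108 and 96.8 CPM, a 1.69-fold rise (log2 fold change 0.76, SE of 0.07, edgeR adjusted p = 3.76e-14). The control libraries of CEBPG were nearly identical and the groups did not overlap.

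The make-up of the C/EBP transcript pool is given as a description. The pool is the sum of counts per base of CEBPA, CEBPB, CEBPG, CEBPD and CEBPE in a library, a measure chosen after the values were seen and free of scaling between libraries. CEBPG made up 22.4%, 18.9% and 23.2% of it under control siRNA and 8.51%, 9.07% and 8.47% under BARD1 siRNA. Its share was thus lower in all 3 BARD1 siRNA libraries although its own level was higher. CEBPD went from 25.6% ± 1.62 to 34.9% ± 2.27 and CEBPB from 49.5% ± 2.96 to 55.4% ± 2.04 (SD, n = 3 per group), in both cases without overlap. CEBPA was 3.39% ± 0.752 and 1.01% ± 0.153, and CEBPE had 0 counts in all 6 libraries. Per base of transcript, the ratio of CEBPB to CEBPG was 2.19, 2.78 and 2.02 under control siRNA and 6.28, 6.34 and 6.52 under BARD1 siRNA. The mean log2 ratio differed by 1.47, which in large part restates the unlike log2 fold changes of CEBPB and CEBPG, 2.21 and 0.76. The exact two-sided permutation p was 0.1, the smallest that 3 against 3 libraries allow. It did not change on adjustment over the 3 ratios tested. A test with that smallest p could not pass the threshold, so no conclusion is drawn from it.

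**Figure D2:**
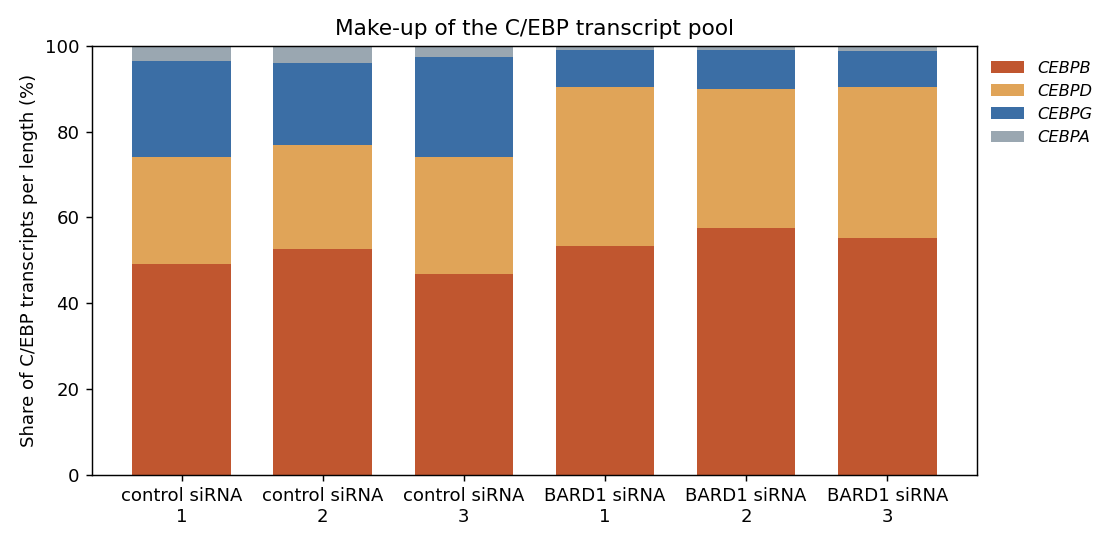
Share of each C/EBP gene in the sum of C/EBP counts per base (percent, vertical axis) in the 6 libraries; each bar is 1 library and CEBPE, at 0, is not drawn. The CEBPG segment takes 18.9% to 23.2% in control siRNA libraries and 8.47% to 9.07% in BARD1 siRNA libraries.

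TRIB3 encodes a pseudokinase that ATF4 and CHOP induce and that in turn restrains them (ENSG00000101255, chromosome 20, 362835 to 397559, plus strand). It stood at 30.3, 29.5 and 32.9 CPM under control siRNA and 177, 171 and 166 CPM under BARD1 siRNA. The groups were tight and far apart, a 5.54-fold rise (log2 fold change 2.47, SE of 0.07, edgeR adjusted p = 1.92e-35). Per base of transcript, the ratio of DDIT3 to TRIB3 was 0.385, 0.382 and 0.434 under control siRNA and 1.16, 1.15 and 1.23 under BARD1 siRNA. That log2 ratio differed by 1.56, which in large part restates the unlike log2 fold changes of DDIT3 and TRIB3, 4.02 and 2.47. The exact two-sided permutation p was 0.1, the smallest possible here. The ratio of ATF3 to ATF4 went from 0.00436, 0.00457 and 0.00519 to 0.0869, 0.0893 and 0.0726, at the same p. It too in large part restates log2 fold changes given above, 5.35 for ATF3 and 1.22 for ATF4. With that smallest p neither ratio test could pass the threshold, so no conclusion is drawn from them.

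CHAC1, a γ-glutamyl cyclotransferase that degrades glutathione (ENSG00000128965, chromosome 15, 40952962 to 40956519, plus strand), had 28, 38 and 37 counts under control siRNA and 472, 450 and 415 under BARD1 siRNA. The groups did not overlap, and the rise was 13.5-fold (log2 fold change 3.75, SE of 0.16, edgeR adjusted p = 5.33e-26). NUPR1, a small chromatin-associated stress protein (ENSG00000176046, chromosome 16, 28532708 to 28539174, minus strand), had 52, 50 and 27 counts under control siRNA and 519, 596 and 534 under BARD1 siRNA. Control replicate 3 was the low one, and the groups remained far apart at 2.46 ± 0.837 and 32.6 ± 2.39 CPM, a 13.3-fold rise (log2 fold change 3.73, SE of 0.16, edgeR adjusted p = 2.77e-25). Without any 1 library the log2 fold change of NUPR1 ranged from 3.46 to 3.88.

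**Figure D3:**
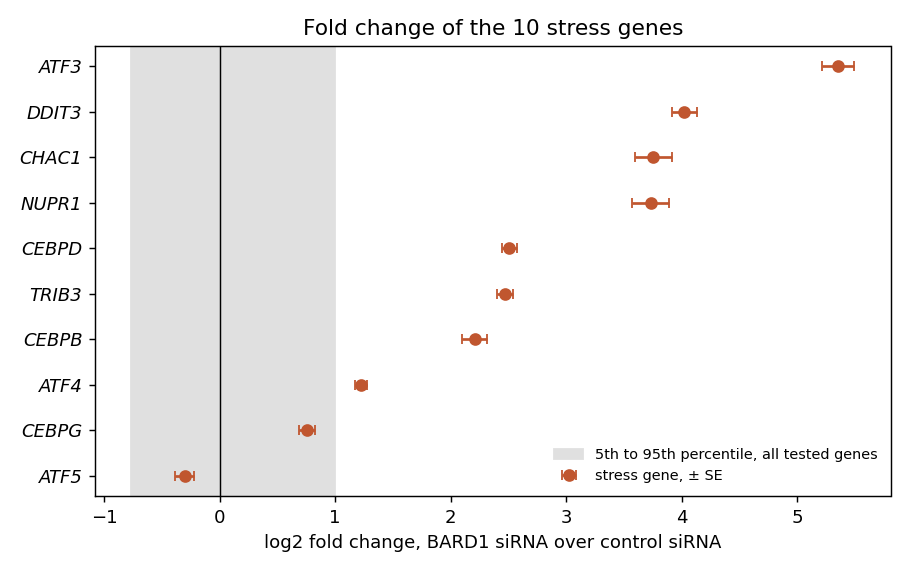
Log2 fold change (BARD1 siRNA over control siRNA, horizontal axis) of the 10 genes with its standard error; the grey band runs from the 5th to the 95th percentile of all 15271 tested genes, −0.76 to 0.99. Of the genes, 8 lie to the right of the band, while CEBPG at 0.76 and ATF5 at −0.30 lie within it.

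Levels of different genes were compared per length, as CPM divided by the table's gene length in kilobases (RPKM). Under control siRNA the order was ATF4 at 82.7 ± 4.49, CEBPB at 31.5 ± 5.6, CEBPD at 16.1 ± 1.28, ATF5 at 15.1 ± 0.735, CEBPG at 13.5 ± 0.121, TRIB3 at 8.99 ± 0.520 and DDIT3 at 3.61 ± 0.478 RPKM (SD, n = 3). CHAC1 at 0.952 ± 0.160, NUPR1 at 0.434 ± 0.148 and ATF3 at 0.390 ± 0.0506 RPKM came last. Of neighbours in this order, CEBPD and ATF5 overlapped between libraries, as did NUPR1 and ATF3. Under BARD1 siRNA the order began with ATF4 at 193 ± 3.79, CEBPB at 146 ± 8.08 and CEBPD at 91.7 ± 4.54 RPKM. DDIT3, at 58.8 ± 1.42, had moved from place 7 to place 4, ahead of TRIB3 at 49.9 ± 1.65 and CEBPG at 22.8 ± 1.37 RPKM. The order of DDIT3 and TRIB3 reverses without length scaling, where TRIB3 takes place 4 with 171 CPM and DDIT3 place 6 with 76.9 CPM. ATF3 at 16.0 ± 2.01, CHAC1 at 12.9 ± 1.27 and ATF5 at 12.3 ± 0.80 RPKM followed, with overlap between ATF3 and CHAC1 and between CHAC1 and ATF5, and NUPR1 was last at 5.75 ± 0.421. ATF5 stood in place 9 after place 4. The table's lengths are the union of all GENCODE 29 exons for all 10 genes, so a gene with long rare exons, as NUPR1 with 5674 bases, is placed lower than its main mRNA would be.

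**Figure D4:**
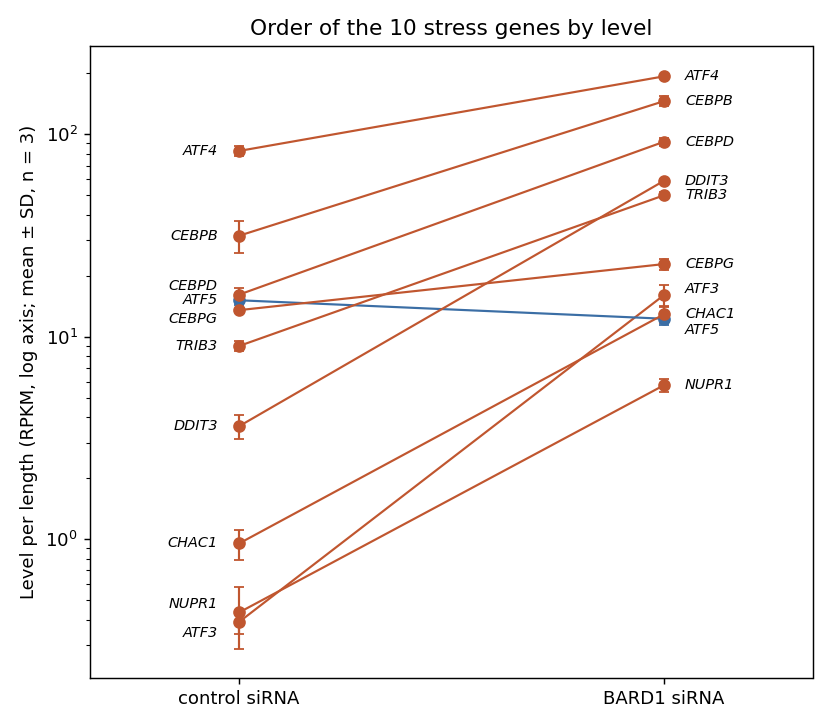
Level per length (RPKM, log axis, mean ± SD of 3 libraries) of the 10 genes under control siRNA at left and BARD1 siRNA at right; rising genes are orange and ATF5 is blue. The lowest mean rose from 0.390 RPKM (ATF3) to 5.75 RPKM (NUPR1), and the ATF5 line crosses those of CEBPG, TRIB3, DDIT3, CHAC1 and ATF3.

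The genes whose centred log2 CPM profile over the 6 libraries lay nearest to that of a stress gene were sought among 10842 protein-coding genes of mean log2 CPM of at least 2. For ATF3 they were the cytokine genes CXCL8, GDF15 and CCL20, at root mean square distances of 0.16, 0.21 and 0.28. For DDIT3 they were the phosphatase subunit gene PPP1R15A, CHAC1 and the MAP kinase phosphatase gene DUSP5, at 0.22, 0.24 and 0.25. For ATF4 they included TXNIP and F3, which encode a thioredoxin-binding protein and tissue factor, at 0.03 and 0.05. The 6 libraries form 2 groups, so a small distance is in large part a like fold change by construction.

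Other members of the same protein families moved less uniformly. The table's own annotation of transcription factor families marks 53 genes as bZIP or C/EBP, 7 of them among the 10 genes. Of the other 46, 40 were tested, 25 rose and 2 fell, DBP among them, and the median log2 fold change was 0.44. Of 16 tested ATF, CREB and BATF genes outside the 10, 9 rose and 0 fell, with a median of 0.26. CREB5, a CRE-binding activator, rose from 12.4 ± 1.63 to 51.5 ± 2.45 CPM (log2 fold change 2.05), BATF2 rose from 0.763 ± 0.153 to 1.75 ± 0.541 CPM (not called without control siRNA replicate 1 or 3 or BARD1 siRNA replicate 2 or 3, edgeR adjusted p 0.075 to 0.157) and ATF2, a target of stress kinases, by 0.66. ATF1 and CREM, at −0.04 and 0.02, did not pass. Of 5 tested genes of the remaining C/EBP and PAR bZIP families, the circadian output factor DBP fell from 8.07 ± 0.743 to 2.31 ± 0.264 CPM and its antagonist NFIL3 rose from 17.3 ± 0.911 to 42.1 ± 3.87 CPM. CEBPA had a log2 fold change of 0.29 (SE 0.21, edgeR adjusted p = 0.271).

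Close paralogues of TRIB3 and CHAC1 went both ways. TRIB1, which directs C/EBP proteins to degradation, rose from 24 ± 1.31 to 48.1 ± 2.51 CPM, while TRIB2 fell from 34.0 ± 1.53 to 21.5 ± 1.01 CPM (edgeR adjusted p = 1.08e-13 and 1.16e-07). CHAC2, the constitutive relative of CHAC1, fell from 14.5 ± 0.149 to 10.3 ± 2.45 CPM, or by 0.49 on the log2 scale (edgeR adjusted p = 0.00558). Without BARD1 siRNA replicate 1 it had a value of −0.31 and an edgeR adjusted p of 0.1. NUPR2 had 0 counts in all libraries.

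Upstream of ATF4, the kinases of eIF2α and their regulators were split, with 3 of 11 tested genes higher, 3 lower and a median of −0.02 on the log2 scale, a split near that of all tested genes. EIF2AK3, which encodes the ER stress kinase PERK, rose from 17.6 ± 1.48 to 27.7 ± 1.61 CPM (log2 fold change 0.65). EIF2AK1, which encodes the haem-regulated kinase HRI, fell by 0.35, and GCN1 and OMA1, which act upstream of the GCN2 and HRI kinases, fell by 0.33 and 0.49 on the log2 scale. The call of OMA1 (edgeR adjusted p = 0.0339) was lost without a filter on low counts and without any 1 library other than BARD1 siRNA replicate 2, with adjusted p from 0.0508 to 0.119. The kinase genes EIF2AK2 and EIF2AK4, at −0.10 and −0.02, did not pass. Of the 2 phosphatase subunits that reverse the signal, the inducible PPP1R15A rose from 21.7 ± 3.66 to 303 ± 16.1 CPM (log2 fold change 3.81) and the constitutive PPP1R15B by 0.54.

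Downstream, targets of ATF4 in amino acid supply rose in 13 of 20 cases and fell in 2, and the median log2 fold change was 0.60. The transporter gene SLC38A2 rose from 126 ± 4.21 to 476 ± 13.4 CPM (log2 fold change 1.92). ASNS, the asparagine synthetase gene and a classical ATF4 target, rose by 1.69 but from only 34 counts over the control group to 106 over the BARD1 siRNA group. CBS rose by 2.14 from 1.44 ± 1.09 to 6.35 ± 2.17 CPM, an uncertain value because the near-identical CBSL could share its reads. CBSL itself had a log2 fold change of 0.53 (edgeR adjusted p = 0.26). The call of CBS was lost without control siRNA replicate 2 or BARD1 siRNA replicate 1 (edgeR adjusted p = 0.0982 and 0.0541). The 2 that fell were ALDH18A1, at −0.32, and SLC7A5, at −0.24, which encode a proline synthesis enzyme and the large neutral amino acid transporter. The serine synthesis genes PSAT1 and PSPH, at 0.01 and 0.02, did not pass, while PHGDH rose by 0.72.

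Targets of ATF4 and CHOP in stress control and cell death rose in 12 of 15 cases and fell in 0, with a median of 1.57. GDF15, a stress cytokine, rose from 2.37 ± 0.155 to 76.4 ± 0.726 CPM. BBC3, which encodes the death promoter PUMA, rose by 3.63 and SESN2, a brake on mTORC1, from 10.7 ± 1.59 to 78.7 ± 4.34 CPM. ERO1A, BCL2L11 and BCL2, named because they alone of the 15 missed the threshold, had log2 fold changes of 0.06, −0.09 and −0.34. BCL2 was the nearest to it, at an edgeR adjusted p of 0.0717. Whether ATF4, CHOP or other regulators acted on the genes of this list was not tested. FGF21 had 0 counts over the control group and 1 over the BARD1 siRNA group, and was not tested.

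Genes of the mitochondrial stress response linked to ATF5, the 1 factor that fell, gave 3 that rose, 1 that fell and 6 that did not pass of 10 tested, with a median of 0.04 on the log2 scale. The share that passed is near the 42.3% of all tested genes. The chaperone gene HSPA9 rose from 675 ± 17.1 to 1010 ± 18.9 CPM (log2 fold change 0.58), the protease genes YME1L1 and LONP1 rose by 0.30 and 0.21, and the chaperonin gene HSPD1 fell by 0.17.

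Cytokine and acute-phase genes with C/EBP sites rose in 7 of 9 tested cases and fell in 0, with a median of 2.86. CXCL8, the interleukin-8 gene, rose from 35.3 ± 1.42 to 1395 ± 64.3 CPM. PTX3, which encodes a soluble pattern receptor, went from 8 counts over the control group to 294, and CSF3, which encodes G-CSF, from 3 to 95. CCL2, PTX3 and CSF3 passed the low-count filter only through the BARD1 siRNA libraries, so a fall could hardly have been called. The genes of this list are also targets of other inflammatory factors. In the IRE1 and ATF6 arms of the unfolded protein response all 14 tested genes rose, with a median of 1.46. HERPUD1 and DNAJB9, which serve ER-associated degradation and folding, rose by 3.45 and 3.24, and the chaperone gene HSPA5 from 644 ± 11.8 to 5536 ± 313 CPM (log2 fold change 3.10).

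**Figure D5:**
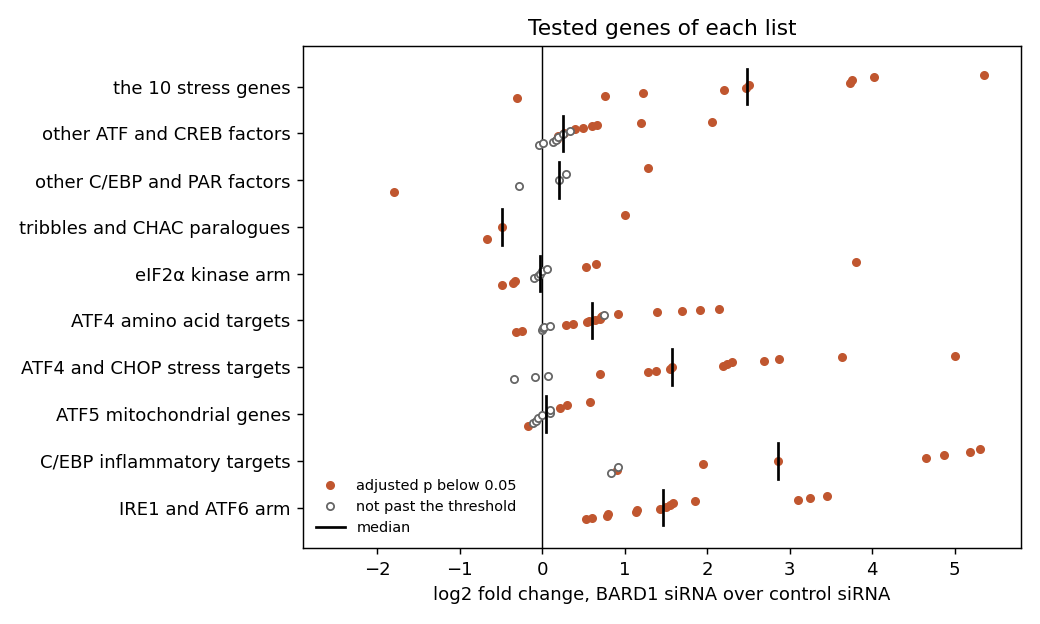
Log2 fold change (horizontal axis) of each tested gene in the 10 stress genes and in the 9 surrounding gene lists; filled points passed the edgeR test at an adjusted p of 0.05, open points did not, and black lines are medians. Medians run from −0.49 for the tribbles and CHAC paralogues to 2.86 for the C/EBP inflammatory targets, with the eIF2α kinase arm at −0.02. The value of 2.86 is that of CCL2, which had 12 counts over the control group.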

How the data were processed

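The authors deposited raw counts of reads per gene, as whole numbers with no normalization. Per the submitters' processing notes, CASAVA and HISAT2 were used with GRCh38 (hg38); the counting program, annotation release and strand setting are stated in none of the sources used here. All 6 count columns matched a sample label. From the counts, edgeR 4.0.16 in R 4.3.3 gave TMM-scaled CPM and the robust quasi-likelihood test of BARD1 siRNA against control siRNA, with the group as the only term. The filterByExpr minimum count was 10 and minimum total 15. P-values were adjusted by Benjamini-Hochberg over the 15271 genes tested, with a threshold of 0.05. SE was taken as |log2 fold change| over the root of F. RPKM used the deposited gene length. P-values measure the spread between cultures; whether their transfections were independent is unknown here. The script was tested on simulated data.

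The 10 genes, from which the pairs of the ratios were taken, and all lists were chosen with earlier results of these data known. Genes named from a list are up to 3 with the largest passing change and up to 3 passing against the list's direction; further examples, among them ATF1, CREM, CEBPA, PSAT1, PSPH, PHGDH, EIF2AK2, EIF2AK4 and the genes that missed the threshold, were chosen after their values were seen. Some genes that the rule or a count covers are not reported here. As alternatives, scaling used RLE factors, upper-quartile factors or library size alone; others were DESeq2 1.42.0, limma-voom (limma 3.58.1), no low-count filter, a replicate block, a minimum of 1 CPM in 3 libraries, only protein-coding genes, no robust estimation, and each library left out in turn. For the promoter motifs, both strands of each RefSeq window were searched.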

Additional observations from a re-analysis of the deposited data

How the results depend on the processing

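All 160 fold changes of the 10 genes, 16 alternatives each, kept their direction and their side of the threshold. ATF5, the smallest, ranged from −0.37 to −0.26 on the log2 scale, with an edgeR adjusted p of at most 0.0316 when a library was left out. Scaling by upper quartiles gave 2815 higher and 3975 lower genes, and by library size alone 2852 and 3906, so the share of higher calls went from 51.9% to 41.5% and 42.2%. The samples share only a replicate number: deviations of same-numbered libraries correlated at −0.0091, −0.015 and −0.022, and with a replicate block 3390 genes were higher and 3122 lower, with all 10 genes called as before. Some list counts moved. The C/EBP inflammatory targets called higher numbered 8 with no filter on low counts and 6 at 1 CPM in 3 libraries, against 7. Stress and death targets called higher numbered 11 at 1 CPM in 3 libraries, against 12. With no filter, other ATF and CREB genes called higher numbered 8 against 9 and other bZIP genes 24 against 25. Lower calls in the eIF2α kinase arm then numbered 2 against 3. With upper-quartile or library-size scaling, 1 of the stress and death targets was lower, against 0. Under either, other ATF and CREB genes called higher numbered 6 against 9, and other bZIP genes 22 against 25. Lower calls in the eIF2α kinase arm numbered 4 against 3. Of the other bZIP genes, 1 in place of 2 was lower with DESeq2, limma-voom, no filter on low counts, 1 CPM in 3 libraries and the replicate block, and 1 to 2 when a library was left out. Leaving out libraries, higher calls numbered 5 to 9 among other ATF and CREB genes (5 without BARD1 siRNA replicate 3), 1 to 2 among C/EBP and PAR genes (2 without control siRNA replicate 2), and 1 to 2 tribbles and CHAC paralogues were lower (1 without BARD1 siRNA replicate 1). Without length scaling, 4 of 10 ranks with control siRNA and 6 of 10 with BARD1 siRNA changed. With 24 to 52 control counts per library, the fold changes of ATF3, CHAC1 and NUPR1 are the least precise of the 10.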
